A study of Mus musculus with 8 samples.

Results

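Neuregulin and ErbB receptor signalling was examined through 9 genes of the embryonic mouse heart: the ligand genes Nrg1, Nrg2, Nrg4 and Hbegf, the receptor genes Egfr, Erbb2, Erbb3 and Erbb4, and Errfi1, which encodes an intracellular inhibitor of the receptors. They were taken from the 23846 gene entries of the expression table by exact match of the gene symbol, and each was found once. RNA-seq of whole E11.5 hearts compared 4 cKO libraries with 4 littermate control libraries, all of the B6 strain by the labels, although the study's methods give a mixed background. The cKO hearts were Ogt f/y;TnT-Cre males, in which a Cre transgene under the cardiac troponin T promoter deletes the X-linked, floxed Ogt gene in cardiomyocytes, while the labels call the other hearts control without giving their alleles. Ogt encodes the enzyme that adds O-GlcNAc to intracellular proteins. Endothelial, endocardial, epicardial and blood cells of cKO hearts keep an intact Ogt gene, and whether each library holds 1 heart or several is not labelled, so p-values measure the spread between these libraries, which may be technical.

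Neuregulins and heparin-binding EGF-like growth factor, the product of Hbegf, are made as membrane-bound precursors, released by proteases, and bind receptors of the ErbB family, which then pair and activate the Ras-ERK and PI3K-Akt kinase cascades. ErbB2 binds no known ligand and ErbB3 has little kinase activity of its own, so both signal in pairs with another receptor. In the midgestation heart, neuregulin 1 from the endocardium acts on ErbB2 and ErbB4 of cardiomyocytes and is needed for trabeculation, ErbB3 acts in cushion mesenchyme, and Hbegf and Egfr restrain the growth of the valves.

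The starts of 3 receptor genes are shown because Erbb2 was the receptor with the most mRNA and the receptor that differed between the groups, Egfr was the receptor with the least, and Erbb4 is its partner for neuregulin 1 in cardiomyocytes. Each window runs from 250 bases before to 50 bases after the RefSeq start on GRCm38.p6, which is also the end of the deposited mm10 locus, 5′ to 3′ on the gene's own strand. Capitals mark AGGAAG on either strand, a core bound by ETS factors, a site of which is known in the human ERBB2 promoter.
Erbb2, chr11:98412234-98412533, plus strand: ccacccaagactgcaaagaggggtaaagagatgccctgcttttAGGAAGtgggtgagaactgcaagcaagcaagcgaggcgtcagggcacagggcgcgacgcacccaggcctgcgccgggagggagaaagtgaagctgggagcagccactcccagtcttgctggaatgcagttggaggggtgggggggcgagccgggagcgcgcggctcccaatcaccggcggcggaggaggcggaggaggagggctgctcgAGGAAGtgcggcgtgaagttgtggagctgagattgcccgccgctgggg
Egfr, chr11:16751953-16752252, plus strand: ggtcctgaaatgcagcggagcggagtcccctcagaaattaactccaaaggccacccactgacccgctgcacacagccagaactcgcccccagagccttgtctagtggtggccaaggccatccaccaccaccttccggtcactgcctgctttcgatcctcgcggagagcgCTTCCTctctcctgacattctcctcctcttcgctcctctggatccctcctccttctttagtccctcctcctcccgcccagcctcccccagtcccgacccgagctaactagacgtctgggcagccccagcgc
Erbb4, chr1:69108010-69108309, minus strand: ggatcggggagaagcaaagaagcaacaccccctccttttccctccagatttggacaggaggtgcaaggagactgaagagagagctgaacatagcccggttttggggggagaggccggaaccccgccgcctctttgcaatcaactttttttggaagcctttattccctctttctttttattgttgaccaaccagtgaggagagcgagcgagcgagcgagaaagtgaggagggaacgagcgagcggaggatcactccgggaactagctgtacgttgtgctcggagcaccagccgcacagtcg
The Erbb2 window held AGGAAG 2 times, that of Egfr 1 time and that of Erbb4 0 times, and 35.4% of 32851 promoter windows of this length held it. GC content was 66.0% for Erbb2, 62.3% for Egfr and 55.3% for Erbb4, against a median of 52.7% over all windows. GGGCGG, the GC box bound by Sp1, was found 1 time in the Egfr window, in neither of the others, and in 35.7% of all windows. The TATA box TATAAA was in none of the 3 windows and in 13.6% of all windows. The AP-1 site TGACTCA was in none of them and in 5.2% of all, and the same held for the E-box CACGTG, at 7.15% of all. A match or its absence is a description of these letters only.

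The targeted gene, Ogt, averaged 22.0 ± 1.93 FPKM in cKO hearts and 42.1 ± 3.64 FPKM in control hearts (SD, n = 4 each), a log2 difference of -0.92 (SE 0.08, Benjamini-Hochberg adjusted p = 0.000149 from limma). FPKM are sequenced fragments set relative to transcript length and to the mapped total of each library, and every log2 difference here is cKO minus control on log2(FPKM + 0.5). FPKM summed to 562190 to 597408 in cKO libraries and to 538581 to 637528 in control libraries, and depth relative to control library 1, estimated from the smallest FPKM steps, was 1.12 to 1.24 in cKO and 1.00 to 1.23 in control libraries. Of 12629 genes with a mean of at least 1 FPKM, 3879 (30.7%) had an adjusted p under 0.05, with 2002 (15.9%) higher and 1877 (14.9%) lower in cKO hearts, and the groups did not overlap for 4143 (32.8%). The cardiomyocyte markers were high in every library, with Myl2 averaging 11133 FPKM in cKO and 10760 FPKM in control hearts. 2 libraries stood apart. In cKO library 3, the liver genes Afp and Alb had 35.2 and 8.44 FPKM, while the other cKO libraries had at most 0.0656 FPKM of Afp. In control library 3, the median log2 deviation from the mean of the other control libraries was -0.13 for 511 loci over 200 kb and 0.18 for 3677 loci under 10 kb. The library descriptions also carry 2 prefixes of unstated meaning, OGF355 for cKO library 1 and control libraries 1 and 2 and OGF373 for the rest, although the names of all 8 value columns carry OGF373.

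Hbegf and Erbb2 were the members that differed between cKO and control hearts, and both were higher in cKO hearts. Of the 9 genes, 8 passed the filter on low values, 2 were called higher and 0 lower by limma, a share of 25.0% beside 30.7% of all genes tested. At an unadjusted p under 0.05 from limma, 3 were higher, Egfr being the other, and 0 lower. The share of all genes at this looser threshold is not given here and is at least the 30.7% called. Counts at an unadjusted p, here and below, are therefore descriptions only. The median log2 difference was -0.04 over these 8 genes and 0.02 over all genes tested. Hbegf and Erbb2 were also the 2 members whose groups did not overlap, beside 32.8% of all genes tested without overlap.

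**Figure D1:**
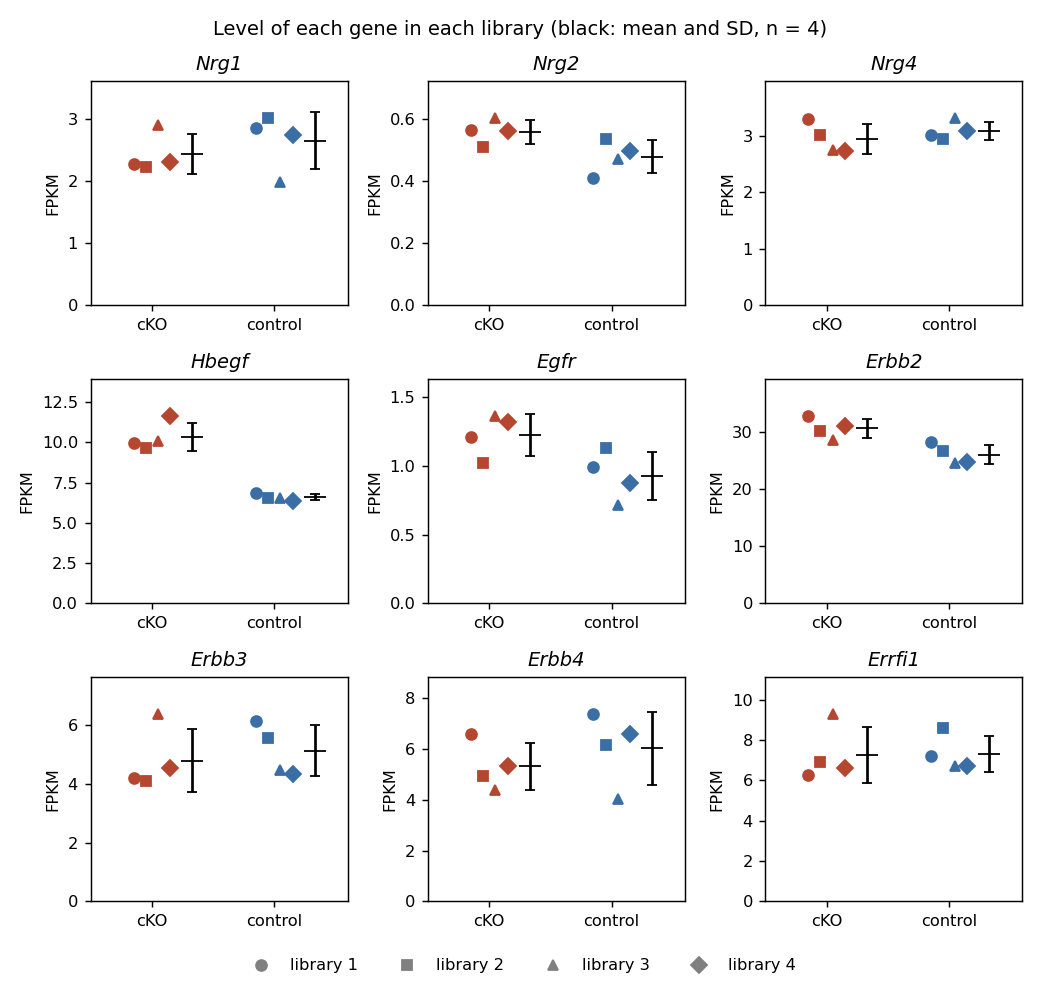
FPKM of each of the 9 genes in each library, with cKO libraries on the left in red and control libraries on the right in blue; marker shapes give the library number and black bars the mean and SD of 4 libraries. The groups are apart for Hbegf and Erbb2, and cKO library 3 is the highest cKO library for Nrg1, Nrg2, Egfr, Erbb3 and Errfi1.

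Among the ligands, Hbegf, which encodes heparin-binding EGF-like growth factor, a ligand of EGFR and ErbB4, lies on chromosome 18 of mm10 from 36504927 to 36515805. Its level was 9.93, 9.66, 10.1 and 11.6 FPKM in cKO libraries 1 to 4, against 6.82, 6.56, 6.57 and 6.36 FPKM in control libraries 1 to 4. Every cKO library was above every control library, cKO library 4 was the highest, and the control libraries lay close together. The means were 10.3 ± 0.853 FPKM in cKO and 6.58 ± 0.188 FPKM in control hearts (SD, n = 4 each). Hbegf was higher by 0.61 on the log2 scale (SE 0.06, 95% interval 0.47 to 0.74, adjusted p = 0.000264 from limma), a fold of 1.52 with an interval of 1.39 to 1.67. An exact two-sided permutation test gave p = 0.0286, the smallest that 4 libraries against 4 allow. In size, this difference exceeded that of 95.5% of the genes tested, and 398 called genes had a difference at least as large. Hbegf kept its direction in all 22 alternatives and passed in each that had a test, with log2 differences of 0.55 to 0.64 when single libraries were left out. Within the OGF355 libraries the difference was 0.54, and within the OGF373 libraries it was 0.65.

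Nrg1, which encodes the endocardial ligand of ErbB3 and ErbB4, had 2.27, 2.23, 2.91 and 2.31 FPKM in cKO libraries 1 to 4, against 2.86, 3.01, 1.99 and 2.75 FPKM in control libraries 1 to 4. The groups overlapped through library 3 of each, the highest of the cKO libraries and the lowest of the control libraries, and the other 3 of each group did not overlap. Over all 8 libraries the log2 difference was -0.10 (SE 0.12, 95% interval -0.38 to 0.18, adjusted p = 0.568 from limma; exact permutation p = 0.457). With both of these libraries left out, a choice made after seeing the data, it was -0.28 (SE 0.06) and passed at an adjusted p = 0.0124 from limma. Array weights, by which limma gives more variable libraries less weight, gave -0.25 (SE 0.08) and an adjusted p = 0.0274. More genes passed in both settings. With array weights 6582 of 12629 genes were called, and with both libraries left out 4584 of 12604, against 3879 of 12629 in the main fit. The differences were -0.31 within the OGF355 libraries and 0.06 within the OGF373 libraries, which include library 3 of both groups. The deposited Nrg1 entry, chromosome 8 from 31818028 to 31918203, spans 100.2 kb of a gene of 1069.5 kb in the GENCODE annotation. Of the 12 annotated coding transcripts, 8 start more than 1 kb outside the entry, and how fragments of these were counted is not given in the sources used here.

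The endocardium makes neuregulin 1, and of 12 markers of endothelial and endocardial cells, 7 were lower and 0 higher in cKO hearts by limma. This was 58.3% of the list, beside 30.7% called of all genes tested, of which 14.9% were lower. The other 5 did not pass, among them Nfatc1 and Emcn. Nfatc1 averaged 11.1 FPKM in cKO and 11.2 FPKM in control hearts, and Emcn 52.4 FPKM in cKO and 54.5 FPKM in control hearts. The markers of these cells summed to 309 to 331 FPKM in cKO libraries and 352 to 385 FPKM in control libraries. Their part in the Nrg1 values was not tested, and in bulk hearts fewer cells of a type cannot be told apart from less RNA per cell.

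Nrg4, whose product binds ErbB4, had 3.3, 3.01, 2.75 and 2.73 FPKM in cKO libraries 1 to 4, against 3.01, 2.94, 3.31 and 3.08 FPKM in control libraries 1 to 4. The groups overlapped, with the 2 highest values in cKO library 1 and control library 3. For Nrg4 the log2 difference was -0.06 (SE 0.07, 95% interval -0.22 to 0.10, adjusted p = 0.562 from limma), and it was 0.13 within the OGF355 and -0.15 within the OGF373 libraries. Nrg4 lies on chromosome 9 from 55220222 to 55283625, and 1 of its 2 annotated coding transcripts starts outside the entry.

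Nrg2, whose product binds ErbB3 and ErbB4, was the scarcest of the 9 genes and was under the filter of 1 FPKM. It had 0.565, 0.509, 0.602 and 0.56 FPKM in cKO libraries 1 to 4, against 0.41, 0.536, 0.472 and 0.498 FPKM in control libraries 1 to 4. cKO library 2 was below control library 2 and otherwise the cKO values were the higher ones. In the fit without a filter, in which 15.5% of 23521 genes were called, the log2 difference was 0.11 (SE 0.05, adjusted p = 0.159 from limma). The groups did not overlap within either prefix, but OGF355 holds only cKO library 1 and control libraries 1 and 2. The entry lies on chromosome 18 from 36017658 to 36197160.

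Among the receptors, Erbb2 was the most abundant member of all in every library. This receptor without a known ligand, on chromosome 11 from 98412484 to 98437716, had 32.7, 30.1, 28.6 and 31.0 FPKM in cKO libraries 1 to 4, against 28.2, 26.6, 24.5 and 24.8 FPKM in control libraries 1 to 4. The lowest cKO library, library 3, was just above the highest control library, library 1. The means were 30.6 ± 1.72 FPKM in cKO and 26.1 ± 1.73 FPKM in control hearts (SD, n = 4 each). Erbb2 was higher by 0.23 on the log2 scale (SE 0.06, 95% interval 0.09 to 0.37, adjusted p = 0.0215 from limma; exact permutation p = 0.0286), a fold of 1.17. It exceeded in size that of 69.1% of the genes tested, and was 0.25 within the OGF355 and 0.27 within the OGF373 libraries. The call was lost without cKO library 1 (log2 difference 0.20, adjusted p = 0.0552), without cKO library 4 (0.22, adjusted p = 0.0615), without control library 4 (0.21, adjusted p = 0.0544) and after removal of haemoglobin and mitochondrially encoded genes (0.24, adjusted p = 0.0708, all from limma).

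Egfr, which encodes the receptor of Hbegf and other EGF-like ligands and lies on chromosome 11 from 16752203 to 16913907, had 1.21, 1.02, 1.36 and 1.32 FPKM in cKO libraries 1 to 4, against 0.989, 1.13, 0.713 and 0.878 FPKM in control libraries 1 to 4. Only the values of cKO library 2 and control library 2 crossed, and within each prefix the groups did not overlap, with differences of 0.13 in the OGF355 and 0.42 in the OGF373 libraries. The OGF355 libraries are only cKO library 1 and control libraries 1 and 2, so a lack of overlap there says little. The log2 difference was 0.28 (SE 0.12, 95% interval 0.01 to 0.55) with an unadjusted p = 0.0434 and an adjusted p = 0.107 from limma, so Egfr did not pass.

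Erbb3 and Erbb4 differed less between the groups than among the libraries of each group. Erbb3, the kinase-poor partner of ErbB2, on chromosome 10 from 128569368 to 128589501, had 4.18, 4.1, 6.36 and 4.52 FPKM in cKO libraries 1 to 4, against 6.12, 5.56, 4.48 and 4.32 FPKM in control libraries 1 to 4. cKO library 3 was the highest of all 8, and the control libraries split by prefix, with the OGF355 libraries 1 and 2 above the OGF373 libraries 3 and 4. The log2 difference was -0.10 (SE 0.15, 95% interval -0.43 to 0.24, adjusted p = 0.661 from limma). It was -0.44 within the OGF355 and 0.14 within the OGF373 libraries, and -0.23 without cKO library 3.

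Erbb4, the cardiomyocyte receptor of neuregulins, had 6.6, 4.95, 4.39 and 5.33 FPKM in cKO libraries 1 to 4, against 7.37, 6.16, 4.02 and 6.61 FPKM in control libraries 1 to 4. Control library 3 was the lowest and control library 1 the highest of all 8, so the control range enclosed the cKO range. The log2 difference was -0.15 (SE 0.18, 95% interval -0.55 to 0.25, adjusted p = 0.541 from limma). Without control library 3, it was -0.32 (adjusted p = 0.0761 from limma). Erbb4 spans 1068.1 kb of chromosome 1, from 68039966 to 69108059, the longest locus of the 9, and long loci were low as a class in control library 3. The part of locus length in its values was not tested.

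**Figure D2:**
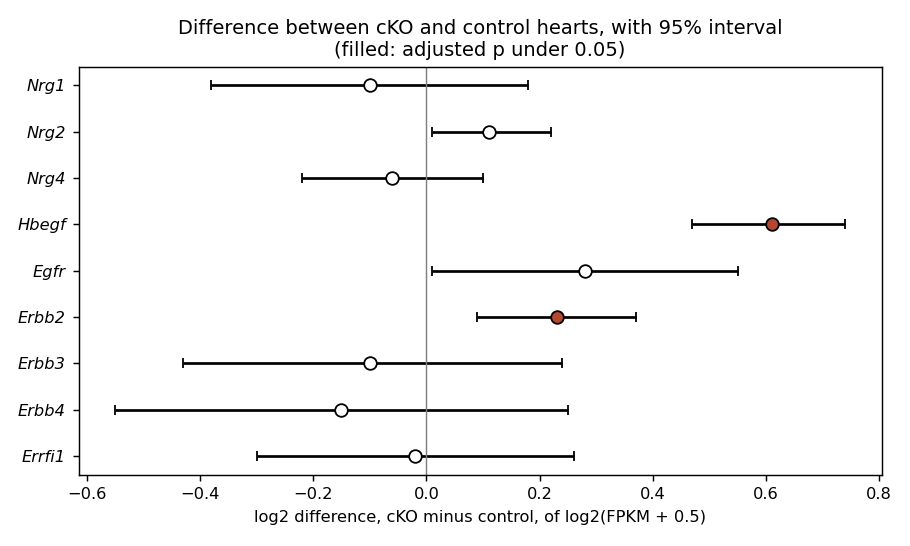
Log2 difference, cKO minus control, for each of the 9 genes, with the 95% interval from limma over 4 cKO and 4 control libraries; filled points passed at an adjusted p under 0.05, and Nrg2 is from the fit without a filter. Hbegf and Erbb2 are filled, at 0.61 and 0.23, and the widest interval is that of Erbb4, from -0.55 to 0.25.

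Since FPKM are per length, the receptors can be set side by side within a library, with a limit for control library 3. Long loci were low as a class there, and Erbb4 spans 1068.1 kb against 25.2 kb for Erbb2. The part of locus length in the shares was not tested. Erbb2 made up 73.2%, 74.9%, 70.3% and 73.5% of the summed FPKM of the 4 receptors in cKO libraries 1 to 4, against 66.1%, 67.4%, 72.7% and 67.8% in control libraries 1 to 4. Only control library 3 reached the cKO range, and it was also the control library with the smallest share of Erbb4. The mean share of Erbb2 was 73.0% ± 1.95 in cKO and 68.5% ± 2.87 in control hearts, while that of Erbb4 was 12.6% ± 1.64 in cKO and 15.7% ± 2.71 in control hearts (SD, n = 4 each). Erbb3 made up 11.5% ± 2.82 in cKO and 13.4% ± 1.14 in control hearts, and Egfr 2.93% ± 0.367 in cKO and 2.42% ± 0.32 in control hearts (SD, n = 4 each). There was 4.96, 6.07, 6.52 and 5.82 times as much Erbb2 as Erbb4 in cKO libraries 1 to 4, and 3.83, 4.32, 6.09 and 3.76 times as much in control libraries 1 to 4. These shares are a description with no test. The 4 receptors together came to 41.9 ± 2.03 FPKM in cKO and 38.1 ± 3.85 FPKM in control hearts (SD, n = 4 each).

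**Figure D3:**
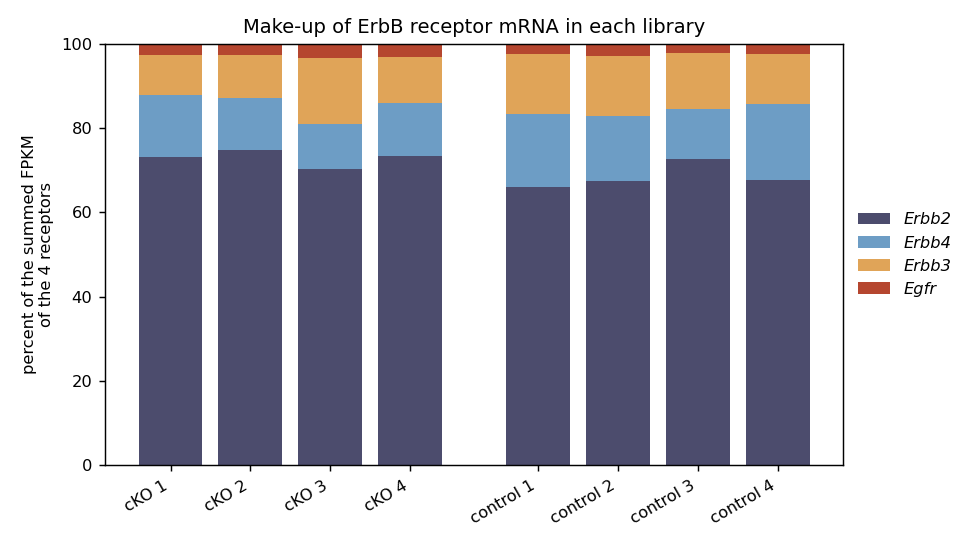
Percent of the summed FPKM of Erbb2, Erbb4, Erbb3 and Egfr in each library, as stacked bars, with the 4 cKO libraries on the left and the 4 control libraries on the right. Erbb2 takes 70.3% to 74.9% of each cKO library and 66.1% to 72.7% of each control library.

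In cKO hearts the order of mean levels was Erbb2, Hbegf, Errfi1, Erbb4, Erbb3, Nrg4, Nrg1, Egfr and Nrg2. Neighbours whose cKO libraries overlapped were Errfi1 with Erbb4, Erbb4 with Erbb3, and Nrg4 with Nrg1. In control hearts Errfi1 stood ahead of Hbegf, and the rest of the order was the same. The control libraries overlapped for Errfi1 and Hbegf, Hbegf and Erbb4, Erbb4 and Erbb3, and Nrg4 and Nrg1.

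Errfi1, also named Mig6, encodes an inhibitor that binds the kinase domain of ErbB receptors, and it is itself switched on by growth factor signalling. On chromosome 4 from 150855091 to 150868880, it had 6.24, 6.91, 9.27 and 6.61 FPKM in cKO libraries 1 to 4, against 7.2, 8.6, 6.73 and 6.69 FPKM in control libraries 1 to 4. cKO libraries 1 and 3 were the lowest and the highest of all 8. The log2 difference was -0.02 (SE 0.12, 95% interval -0.30 to 0.26, adjusted p = 0.928 from limma), and its sign changed when cKO library 1, cKO library 4 or control library 2 was left out. Within prefixes it was -0.31 in the OGF355 and 0.15 in the OGF373 libraries.

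With library 3 of both groups left out, Hbegf and Erbb2 still passed, at log2 differences of 0.62 (adjusted p = 0.00175) and 0.23 (adjusted p = 0.0225, both from limma). In that fit Egfr was at 0.17, Erbb3 at -0.28, Erbb4 at -0.24 and Errfi1 at -0.17, with adjusted p of 0.111 to 0.298 from limma, so none of these 4 passed.

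**Figure D4:**
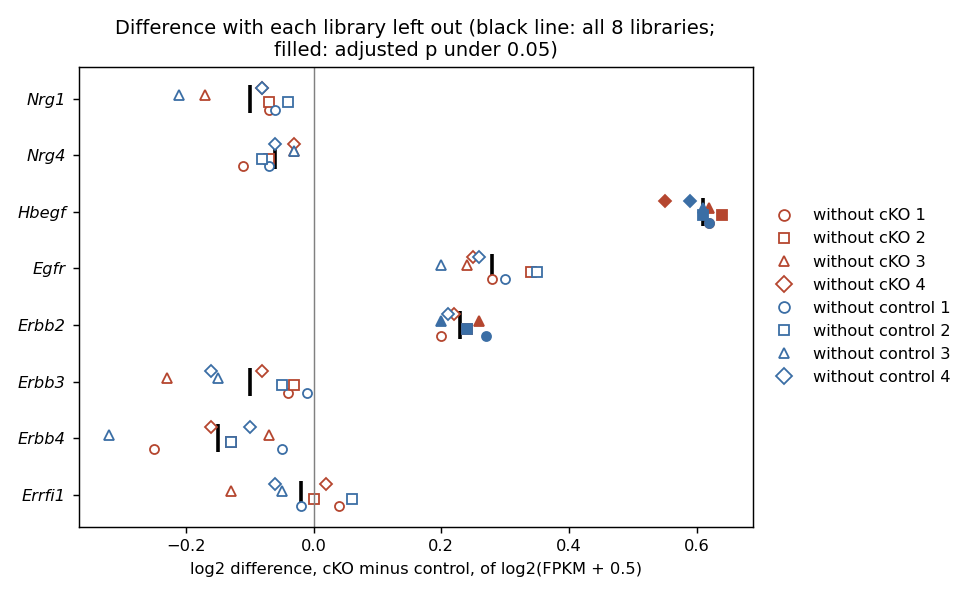
Log2 difference, cKO minus control, for the 8 genes that passed the filter, with each library left out in turn; red symbols leave out a cKO library, blue symbols a control library, filled symbols passed at an adjusted p under 0.05, and black lines mark the value over all 8 libraries. Hbegf stays between 0.55 and 0.64 and is always filled, Erbb2 stays between 0.20 and 0.27 and is not always filled, and Errfi1 lies on both sides of 0.

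The rest of the pathway showed changes in both directions. Of 88 other genes of ligand processing, receptor turnover, downstream kinases, outputs and the endocardial setting, 81 were tested, 9 were higher and 13 lower in cKO hearts. The share called, 27.2%, lay beside 30.7% of all genes tested, and the median log2 difference was 0.01.

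Of 7 other ligands of the EGF family, Tgfa, which encodes a ligand of EGFR, was the only 1 to pass the filter. It had 3.59, 3.3, 3.06 and 3.22 FPKM in cKO libraries 1 to 4, against 2.84, 2.61, 2.51 and 2.39 FPKM in control libraries 1 to 4, with no overlap. Tgfa was higher by 0.30 on the log2 scale (SE 0.07, adjusted p = 0.0114 from limma). Areg, which encodes amphiregulin, another ligand of EGFR, was under the filter and is named after its values were seen. It had 0.329, 0.703, 0.369 and 0.627 FPKM in cKO libraries 1 to 4, against 0.0774, 0.141, 0.169 and 0.173 FPKM in control libraries 1 to 4. Every cKO library was above every control library, with a log2 difference of 0.64 in the fit without a filter (SE 0.14, adjusted p = 0.0234 from limma). The other 5 ligands, Nrg3, Egf, Ereg, Btc and Epgn, were below 0.5 FPKM in every library, and their groups overlapped.

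Of 9 genes that process ligands and receptors, 2 were higher by limma, 0 were lower and 7 did not pass, with a median of 0.13. The share called was 22.2%, beside 30.7% of all genes tested. At an unadjusted p under 0.05 there were 3 higher and 0 lower, with no share of all genes at that threshold to set beside them. Adam17, which encodes the protease that sheds Hbegf and other EGFR ligands, averaged 19.0 ± 0.319 FPKM in cKO and 15.7 ± 0.338 FPKM in control hearts (SD, n = 4 each; log2 difference 0.27, SE 0.04, adjusted p = 0.00106 from limma). The lowest cKO library had 18.6 FPKM and the highest control library 16.0 FPKM of Adam17. Adam10, the sheddase of many other membrane proteins, had 45.6 to 49.6 FPKM in cKO and 46.1 to 51.8 FPKM in control libraries.

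Among 12 tested genes of receptor stability and trafficking, 1 was higher, 1 was lower and the median was 0.03. The share called was 16.7%, beside 30.7% of all genes tested. Lrig1, which encodes a membrane protein that promotes the degradation of ErbB receptors, had 8.64, 8.02, 8.05 and 8.25 FPKM in cKO libraries 1 to 4, against 10.7, 10.2, 10.1 and 10.8 FPKM in control libraries 1 to 4. The groups were well apart, and Lrig1 fell by 0.32 on the log2 scale (SE 0.04, adjusted p = 0.000869 from limma). Hsp90aa1, a chaperone on which ErbB2 depends, averaged 397 ± 20.9 FPKM in cKO and 329.6 ± 29.1 FPKM in control hearts (SD, n = 4 each; adjusted p = 0.0261 from limma). The Hsp90aa1 groups overlapped, and its call was lost in 6 of the 8 fits that left out a library.

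Of 29 adaptors and downstream kinases, 2 were higher and 5 lower, with a median of 0.02. This was a share of 24.1%, beside 30.7% of all genes tested. Of the regulatory subunits of PI3K, Pik3r2 was higher, Pik3r3 was lower and Pik3r1, at 5.98 ± 0.131 FPKM in cKO and 6.03 ± 0.287 FPKM in control hearts (SD, n = 4 each), did not pass (log2 difference -0.01, adjusted p = 0.875 from limma). Pik3r2 averaged 15.7 ± 0.53 FPKM in cKO and 11.9 ± 0.68 FPKM in control hearts, and Pik3r3 averaged 9.4 ± 0.19 FPKM in cKO and 13.0 ± 0.746 FPKM in control hearts (SD, n = 4 each). The log2 differences were 0.39 for Pik3r2 (adjusted p = 0.000869) and -0.44 for Pik3r3 (adjusted p = 0.000417, both from limma). Of the ERK cascade, Map2k1, which encodes MEK1, fell by 0.31 on the log2 scale (adjusted p = 0.0117), and Mapk3, which encodes ERK1, by 0.22 (adjusted p = 0.00597, both from limma). Mapk3 averaged 38.8 ± 1.06 FPKM in cKO and 45.2 ± 1.47 FPKM in control hearts (SD, n = 4 each), and the groups did not overlap for either gene. Other called genes of the list, named after their values were seen, were Sos1, which encodes a Ras activator and was higher by 0.28, and Araf, which encodes a kinase above MEK and fell by 0.15 (adjusted p = 0.0151 and 0.0301 from limma).

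Genes that ERK signalling switches on did not move together, with 3 of 16 higher, 3 lower and a median of 0.03. Of this list 37.5% were called, beside 30.7% of all genes tested. Spry1, an inhibitor of receptor tyrosine kinase signalling, had 5.1, 5.22, 5.29 and 5.34 FPKM in cKO libraries 1 to 4, against 3.7, 4.02, 3.94 and 3.77 FPKM in control libraries 1 to 4, and was higher by 0.40 on the log2 scale (SE 0.04, adjusted p = 0.000489 from limma). The transcription factor Myc was higher by 0.26 (adjusted p = 0.00803), and the inhibitor Spred1, named after its values were seen, by 0.16 (adjusted p = 0.0462, both from limma). The lower genes encode transcription factors. Egr1 averaged 3.86 ± 0.236 FPKM in cKO and 6.23 ± 0.94 FPKM in control hearts, and Etv4 averaged 4.37 ± 0.774 FPKM in cKO and 6.81 ± 0.334 FPKM in control hearts (SD, n = 4 each). The log2 differences were -0.62 for Egr1 (adjusted p = 0.00208), -0.60 for Etv4 (adjusted p = 0.00304) and -0.41 for the related ETS factor Etv1 (adjusted p = 0.00105, all from limma). Dusp6, a phosphatase of ERK, had 18.2 to 19.2 FPKM in cKO and 16.8 to 19.2 FPKM in control libraries and did not pass.

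In the endocardial and trabecular list around Nrg1, 4 of 14 genes were lower and 0 higher by limma, and the median was -0.20. This share of 28.6% was near the 30.7% called of all genes tested, of which 14.9% were lower. At an unadjusted p under 0.05, 7 genes of the list were lower and 1 higher, with no share of all genes at that threshold to set beside them. Gja5, which encodes connexin 40 of trabecular and atrial muscle, had 35.4, 40.5, 34.6 and 32.5 FPKM in cKO libraries 1 to 4, against 63.3, 58.4, 70.8 and 71.4 FPKM in control libraries 1 to 4. It fell by 0.87 on the log2 scale (adjusted p = 0.000277 from limma). The guidance ligand Slit2 averaged 14.5 ± 2.09 FPKM in cKO hearts, against 27.8 FPKM in control hearts, with its highest cKO library at 17.3 FPKM and its lowest control library, library 3, at 20.9 FPKM. Slit2 fell by 0.91 (adjusted p = 0.0019), Hey2, a transcriptional repressor of compact myocardium, by 0.26 (adjusted p = 0.00603), and Ephb4, an endothelial receptor of ephrin-B2, by 0.33 (adjusted p = 0.00939, all from limma). The call for Ephb4 was lost after removal of haemoglobin and mitochondrially encoded genes (log2 difference -0.32, adjusted p = 0.0501 from limma). The trabecular genes Nppa and Bmp10 and the matrix gene Vcan did not pass, and Nppa had 2008 to 2572 FPKM in cKO and 2507 to 3279 FPKM in control libraries.

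**Figure D5:**
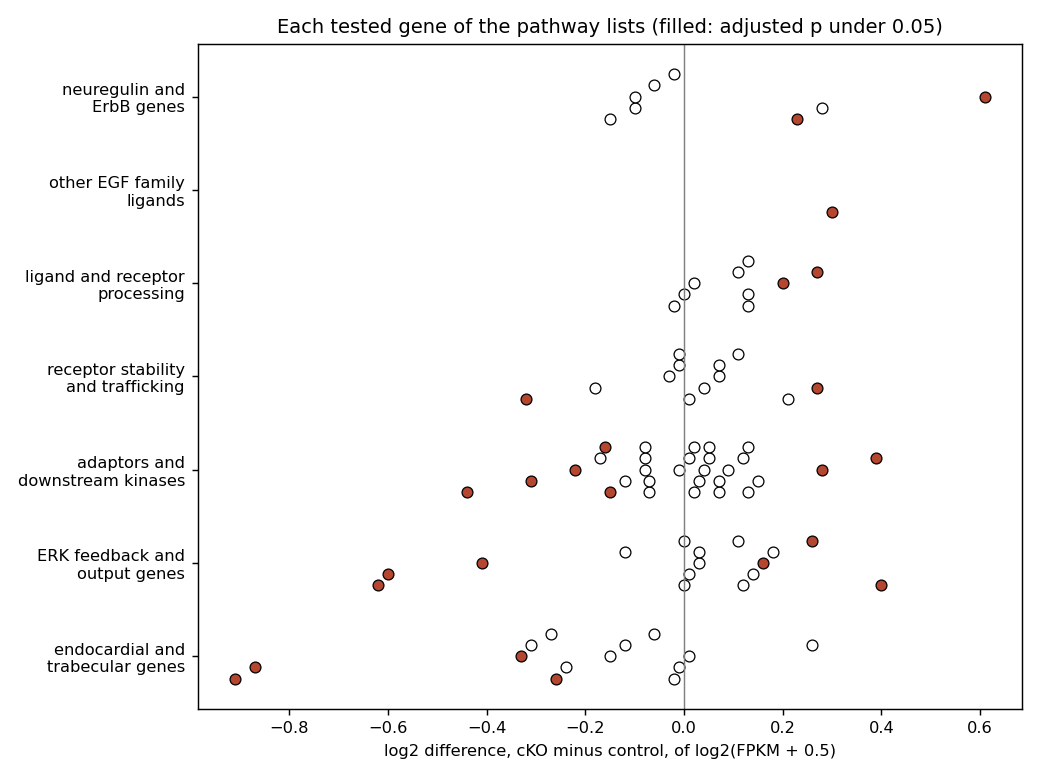
Log2 difference, cKO minus control, of each tested gene, 1 row of points for each list, from the neuregulin and ErbB genes at the top to the endocardial and trabecular genes at the bottom; filled points passed at an adjusted p under 0.05 from limma over 4 cKO and 4 control libraries. Filled points stand on both sides of 0 for the kinases and the ERK output genes, and on the lower side alone for the endocardial and trabecular genes, down to -0.91 for Slit2.

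Among the marker lists, the endothelial and endocardial list had 58.3% called by limma and the epicardial list 45.5%. No other marker list reached the 30.7% of all genes tested. Counts at an unadjusted p have no share of all genes beside them. Of 11 epicardial markers, 5 were higher and 0 lower in cKO hearts by limma (9 and 0 at an unadjusted p under 0.05), and the list summed to 273 to 317 FPKM in cKO libraries and 219 to 246 FPKM in control libraries, beside the higher Hbegf, Erbb2 and Areg. Of 10 cushion mesenchyme markers, 1 was higher and 0 lower by limma (5 and 0 at an unadjusted p under 0.05), the median log2 difference was 0.24, and the list summed to 277 to 355 FPKM in cKO and 253 to 297 FPKM in control libraries. The cardiomyocyte list had 0 of 12 genes called by limma, 1 higher at an unadjusted p under 0.05, and summed to 29409 to 32957 FPKM in cKO and 27673 to 34638 FPKM in control libraries. No gene of the neural crest, myeloid, erythroid or foregut and liver lists was called by limma among those tested. Tested were 2 of 8 neural crest, 5 of 8 myeloid, 8 of 8 erythroid and 2 of 8 foregut and liver genes. Afp and Alb, the foregut and liver genes tested, passed the filter only through cKO library 3, so their lack of a call says little. At an unadjusted p under 0.05, 1 neural crest gene was lower and 0 others passed. No marker of any list was at the lowest value in all libraries. The sums were 27.4 to 38.7 FPKM in cKO and 36.7 to 48.5 FPKM in control libraries for neural crest and 12.9 to 18.4 FPKM in cKO and 7.35 to 17.7 FPKM in control libraries for myeloid cells. Erythroid markers summed to 30505 to 45385 FPKM in cKO and 15088 to 57480 FPKM in control libraries, and foregut and liver markers to 1.21 to 50.4 FPKM in cKO and 0.832 to 0.997 FPKM in control libraries. The foregut marker Foxa2, under the filter and named after its values were seen, had 0.181, 0.107, 0.227 and 0.301 FPKM in cKO libraries 1 to 4 and was listed at 0.001 FPKM, the lowest value of the table, in every control library. Its log2 difference in the fit without a filter was 0.48 (SE 0.08, adjusted p = 0.00964 from limma). The part of these cells in the values of the 9 genes was not tested.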

How the data were processed

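The authors made stranded mRNA libraries from E11.5 hearts, used TopHat2 and Bowtie2 to map their reads on mm10, and deposited FPKM per gene entry; versions, annotation and read numbers are not given in the sources used here. Of the value cells, 1.32% are text codes, the lowest value is 0.001, and a column of the authors' p-values was not used. Of 23521 entries numeric in every library, the 12629 averaging 1 FPKM or more were fitted with limma 3.58.1 in R 4.3.3 on log2(FPKM + 0.5), with a mean for each group and moderated variances that follow a trend with level, and called where the p adjusted by Benjamini-Hochberg was under 0.05. The procedure was tested on simulated data. Single genes were also compared by an exact permutation test (two-sided), which cannot give a p below 0.0286 here. The study used Cuffdiff2 on reads, which were not used here. The spread among libraries sets the precision.

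The members and gene lists were chosen with earlier results of these data known. Named are the 9 members, Ogt, of each pathway list up to 5 called genes with the smallest adjusted p, and of each marker list up to 3 of the highest FPKM; other genes named for their lack of a call or under the filter were chosen after their values were seen. The results for 2 genes within this rule are not reported here. Symbols of 2 listed genes were matched by an older name. Alternatives were pseudocounts of 0.1 and 1, no filter, a filter at 5 FPKM, scaling by quantiles or by median ratios, tables without haemoglobin and mitochondrially encoded genes, variances without a trend, array weights, a replicate block, the description prefix as covariate or alone, each library left out, and, added after seeing the data, library 3 of both groups left out.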

Additional observations from a re-analysis of the deposited data

Results flagged for a closer look

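For 4 genes, 1 library lay so far from the other 3 of its group that its gap, divided by the group's range, exceeded Dixon's 95% critical value. All 4 were in cKO library 3. Nrg1 had 2.91 FPKM there, and the nearest cKO library had 2.31 FPKM. Afp had 35.2 FPKM there and at most 0.0656 FPKM in the other cKO libraries, and Alb had 8.44 FPKM there and 0.001 FPKM, the lowest value of the table, in the others. Prrx2, a cushion mesenchyme marker, had 39.4 FPKM there and at least 42.2 FPKM in the other cKO libraries. In 114 groups of 4 libraries tested, chance alone gives about 5.7 such values, 1 in 20 of the groups.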

How the results depend on the processing

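Over the table, 3879 genes were called, and array weights raised this to 6582. Of the members, 2 were called, against 1 (Hbegf) after removal of haemoglobin and mitochondrially encoded genes and 3 with array weights or without library 3 of both groups, a setting chosen after seeing the data. Of the other pathway genes, 22 were called, against 41 with array weights. When single libraries were left out, 2650 to 4951 genes, 1 to 2 members and 18 to 30 other pathway genes were called, and the Erbb2 share of the receptors was 3.68 to 5.86 percentage points higher in cKO libraries. The log2 difference of Errfi1 turned to 0.04 without cKO library 1, 0.02 without cKO library 4 and 0.06 without control library 2; its range over these fits was -0.13 to 0.06. Same-numbered libraries deviated together with correlations of -0.0116 to 0.158, and differently numbered ones with correlations of -0.123 to 0.102. Whether the numbers pair the libraries is not settled by these values. With a replicate block, 3443 genes, 2 members and 20 other pathway genes were called, and Hsp90aa1 was not (adjusted p = 0.0749 from limma). Of 554 alternative values of single genes that had a test, 530 kept their direction and side of the threshold, 19 lost the call, 2 gained it and 3, those of Errfi1 above, changed sign. Of 56 values within a prefix, which had no test, 4 had the opposite sign, those of Nrg1, Nrg4, Erbb3 and Errfi1. The cause of these changes was not tested. Depth is known only relative to control library 1, which limits what can be said of Nrg2, Areg and Egfr.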
